A study of Mus musculus with 12 samples.

Results

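The Zscan4 and Tcstv genes are 7 rows (Zscan4b, Zscan4c, Zscan4d, Zscan4e, Zscan4f, Tcstv1 and Tcstv3) of the 20308 genes measured by RNA sequencing in mouse urogenital sinus epithelium, and all 7 passed the filter on low counts. They were chosen by name after earlier results of these data had shown them far higher in the Dnmt1-deleted group, so their difference between the groups is given as a description, with no test. The series compared epithelium of C57BL/6J embryos at embryonic day 15.5 in a Control group (4 libraries, wildtype) and a Dnmt1cKO group (8 libraries, Dnmt1 deleted by a Cre recombinase under the Shh driver). Dnmt1 encodes the enzyme that copies DNA methylation to the new strand after replication, and the series asked what differs in the epithelium without it. Cre under Shh acts where Shh is expressed and the deletion passes to daughter cells, so cells of other descent in the preparation keep Dnmt1. The epithelium was freed from stroma with trypsin, and tissue of several embryos went into each lysate. Sample descriptions carry a code of the letter b and a number with no stated meaning, and 3 Dnmt1cKO libraries share the code 7. Nothing in the labels says that these came from separate pools, so the spread between libraries may be technical in part.

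Zscan4 proteins carry a SCAN domain and zinc fingers. In the mouse embryo their genes are transcribed in a short burst around the 2-cell stage, when the embryo's own genome is switched on, and in a small, changing fraction of embryonic stem cells, where they are known for a role in telomere lengthening and genome stability. Tcstv1 and Tcstv3 are named for their variable expression at the 2-cell stage and belong to the same burst. Both families are clusters of near-identical copies, and both are normally silent in somatic tissue.

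The 5 Zscan4 members lie on chromosome 7 of GRCm38 (the mm10 build) in the order Zscan4b, Zscan4c, Zscan4d, Zscan4e, Zscan4f, from position 10900740 to 11402318. Tcstv1 (chr13:119893388-119894785, minus strand) and Tcstv3 (chr13:120316878-120318178, plus strand) flank a second cluster. The annotation lists all 7 as protein coding, except that RefSeq lists Zscan4e as a pseudogene. Over at least 1725 aligned bases, the transcripts of the 10 Zscan4 pairs were 96.5% to 99.7% identical, and those of Tcstv1 and Tcstv3 were 92.5% identical over 795 bases. The deposited expected counts divide reads that fit several copies, so the sum of a family is firmer than the level of a single copy.

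The RefSeq table (GRCm38.p6) holds start sites for 4 of the 7 members, Zscan4b, Zscan4c, Zscan4d and Zscan4f. The 250 bases before each start are printed 5′ to 3′ on the gene's strand because these copies were found together in the same libraries. Capitals mark each CG pair, the sequence that Dnmt1 acts on, and the single TATAAA.
Zscan4b: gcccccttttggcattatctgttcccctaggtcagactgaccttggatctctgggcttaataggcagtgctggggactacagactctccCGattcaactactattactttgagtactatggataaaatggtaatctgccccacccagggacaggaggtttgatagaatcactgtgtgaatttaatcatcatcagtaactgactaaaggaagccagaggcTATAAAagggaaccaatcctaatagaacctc
Zscan4c: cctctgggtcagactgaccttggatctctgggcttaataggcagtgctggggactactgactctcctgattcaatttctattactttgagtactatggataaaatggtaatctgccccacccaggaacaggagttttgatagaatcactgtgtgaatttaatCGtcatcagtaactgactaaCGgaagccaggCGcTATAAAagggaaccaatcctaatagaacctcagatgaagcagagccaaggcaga
Zscan4d: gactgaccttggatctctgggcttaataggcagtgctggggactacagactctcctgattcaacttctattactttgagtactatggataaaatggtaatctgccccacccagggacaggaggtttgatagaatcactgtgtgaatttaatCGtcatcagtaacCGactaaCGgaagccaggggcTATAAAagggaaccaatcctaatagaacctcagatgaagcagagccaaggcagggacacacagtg
Zscan4f: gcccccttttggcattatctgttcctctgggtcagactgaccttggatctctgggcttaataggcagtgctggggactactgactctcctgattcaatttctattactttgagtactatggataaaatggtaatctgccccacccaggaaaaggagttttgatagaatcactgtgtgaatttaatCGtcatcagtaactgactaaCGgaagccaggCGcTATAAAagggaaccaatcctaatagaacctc
They stand at chr7:10905051-10905300 (minus strand), chr7:11005495-11005744 (plus strand), chr7:11166149-11166398 (minus strand) and chr7:11397665-11397914 (plus strand). The windows were 94.8% to 99.6% identical over 216 to 250 aligned bases in the 6 pairs. Zscan4b held 1 CG pair and each of the others held 3. Over all 32851 promoter windows of this length the median was 6 CG pairs, and 37.8% of windows held 3 or fewer. TATAAA, searched on both strands, was found once in each of the 4 windows, starting 31, 54, 65 and 31 bases before the annotated start, and 12.4% of all windows held it. A match of letters describes the window and does not show that a factor binds there.

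Libraries held 543591 to 7577706 expected counts in Control and 4007533 to 11970907 in Dnmt1cKO. The targeted gene, Dnmt1, stood at 164, 114 and 237 CPM (counts scaled to a common TMM-adjusted library total) in Controls 1 to 3 and at 22.8 to 97.0 CPM in the Dnmt1cKO libraries, but at 2.84 CPM, a single count, in the library labelled Control 4, which goes against its label. Its difference was not called (log2 fold change -1.29, edgeR adjusted p = 0.2838; -1.60 and 0.0815 when that library was left out). That library and Control 3 were the shallowest, and counts of called genes are given with and without them. In the edgeR quasi-likelihood test of Dnmt1cKO against Control, 132 of 12761 genes were called higher (1.03%) and 198 lower (1.55%) at a Benjamini-Hochberg adjusted p under 0.05. Without Control 3 and the library labelled Control 4, 45 were higher and 2 lower. The epithelial identity of the tissue was visible in both groups: at least 14 of 16 listed markers of urogenital epithelium had a count in every library, with a summed level of 3911 to 27970 CPM in Control and 5625 to 8971 CPM in Dnmt1cKO. Stromal markers summed to 1354 to 12485 CPM in Control and 368 to 7248 CPM in Dnmt1cKO, and edgeR called 0 of the 15 tested (6 lower at an unadjusted p under 0.05; 2 lower by DESeq2, 1 by limma-voom). The part of stroma carried over in the results that follow was not tested.

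Zscan4 transcripts were nearly missing from Control and abundant in 7 of the 8 Dnmt1cKO libraries. The summed level of the 5 copies was 0.861, 1.01, 8.29 and 2.84 CPM in Controls 1 to 4, from 7, 3, 11 and 1 counts. Across the Dnmt1cKO libraries it had a lowest value of 1.12, a median of 799 and a highest value of 2217 CPM. Dnmt1cKO 2 was the lowest, inside the Control range, and the remaining 7 libraries, at 268 to 2217 CPM, did not overlap with Control. The mean was 917 ± 730 CPM (SD, n = 8) against 3.25 ± 3.48 CPM (SD, n = 4). Set against the pooled Control counts, the Dnmt1cKO mean was 533-fold higher, with an exact Poisson 95% interval of 352 to 850 that covers counting error only, since no molecular identifiers are mentioned and repeated reads of a molecule are not independent. Pooling weights the Control libraries by depth. Against the unweighted Control mean of 3.25 CPM the ratio would be lower, and the interval does not cover that choice. In this bulk tissue, fewer cells with the transcript and less of it per cell cannot be told apart.

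Zscan4f and Zscan4c took the largest shares of the Zscan4 signal. Zscan4f ranged from 0 through a median of 352 to 957 CPM in Dnmt1cKO, with a mean of 370 ± 296 CPM (SD, n = 8). In Control it had 7 counts in Control 1, 3 in Control 2 and 0 in the other 2 libraries, and the pooled ratio was 473-fold (exact Poisson 95% interval 257 to 986). All 7 Dnmt1cKO libraries other than Dnmt1cKO 2 lay above Control. Zscan4c, known as the main copy in embryonic stem cells, ranged from 0.842 through a median of 220 to 641 CPM, with a mean of 276 ± 235 CPM (SD, n = 8). Its 11 Control counts were all in Control 3, at 8.29 CPM, and the pooled ratio was 320-fold (179 to 642). Against the unweighted Control mean of 2.07 CPM it would be lower. Here too Dnmt1cKO 2 was the only Dnmt1cKO library at or under the Control maximum.

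Zscan4b and Zscan4d, the latter known as the main copy in 2-cell embryos, had no count in any Control library. Zscan4b ranged from 0 through a median of 111 to 306 CPM in Dnmt1cKO, with a mean of 126 ± 93.5 CPM (SD, n = 8). Against a floor of 3 counts over the whole Control group this was at least 536-fold higher. Zscan4d ranged from 0.281 through a median of 74.6 to 347 CPM, with a mean of 117 ± 124 CPM (SD, n = 8), at least 498-fold higher. In Dnmt1cKO 2 it had 1.25 expected counts beside 3.75 of Zscan4c, fractions that come from dividing reads between copies. Zscan4e was the lowest copy. It ranged from 0 through a median of 27.4 to 88.0 CPM, had a count in 5 of 8 Dnmt1cKO libraries, and in Control had a single count, in the library labelled Control 4. Its mean of 28.9 ± 30.5 CPM (SD, n = 8) was 370-fold the pooled Control level, with a wide counting interval of 66.4 to 14606. Against the unweighted Control mean of 0.711 CPM the ratio would be lower.

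Tcstv differed from Zscan4 in that no Dnmt1cKO library lacked it. The Tcstv sum was 0 in all 4 Control libraries and ranged from 17.2 through a median of 34.1 to 117 CPM in Dnmt1cKO, so the groups did not overlap. Its mean of 43.1 ± 32.4 CPM (SD, n = 8) was at least 184-fold above the Control floor. Tcstv1 carried nearly all of it, ranging from 14.5 through a median of 30.6 to 98.9 CPM with a mean of 39.2 ± 27.4 CPM (SD, n = 8), at least 167-fold higher. Tcstv3 was low, from 0 through a median of 1.84 to 18.2 CPM, with a count in 5 of 8 Dnmt1cKO libraries and a mean of 3.94 ± 6.21 CPM (SD, n = 8), at least 16.8-fold higher. Dnmt1cKO 8 had the highest level of both genes, and without it the Tcstv3 mean was 1.89 CPM. Of the 7 members, Tcstv1 and Zscan4d had every Dnmt1cKO library above every Control library, a pattern found in 2.59% of all genes tested, and since the members were chosen from this contrast nothing is read from that count.

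**Figure D1:**
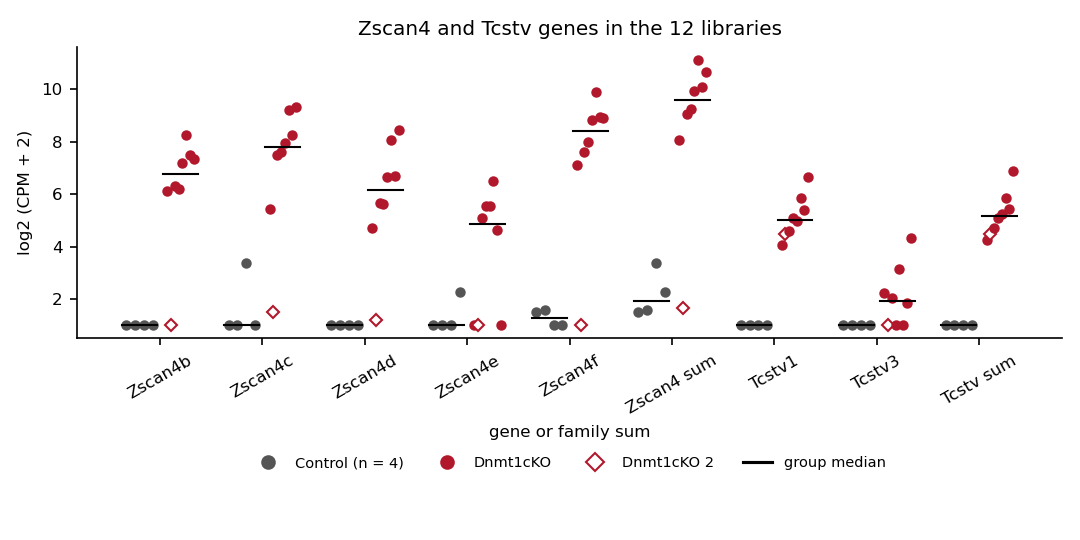
Level of each member and of the 2 family sums in every library, as log2 (CPM + 2); grey circles are the 4 Control libraries, red circles the Dnmt1cKO libraries, the open diamond is Dnmt1cKO 2 and bars are group medians. The Zscan4 sum of Dnmt1cKO 2 (1.12 CPM) lies among the Controls, while its Tcstv sum (20.4 CPM) lies with the other Dnmt1cKO libraries.

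To compare the 2 families with each other and with a gene of the epithelium, levels were divided by the length of the longest annotated transcript. Per kilobase, the Zscan4 sum stood at 141 to 1126 CPM in the 7 Dnmt1cKO libraries that expressed it and at 0.493 in Dnmt1cKO 2. Epcam, an adhesion protein of epithelial cells, stood at 259 to 465 CPM per kilobase in the 8 libraries. In those 7 libraries the Zscan4 sum lay above 98.4% to 99.9% of the 19327 genes with an annotated length. The Tcstv sum, at 14.8 to 101 CPM per kilobase in all 8 libraries, lay above 81.2% to 95.9% of them. Each sum adds the copies of a family and is set beside single genes here, and no copy was ranked alone.

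In the 7 libraries with signal the copies had the same leading member except in Dnmt1cKO 8, where Zscan4c was above Zscan4f. Zscan4f made up 29.4% to 50.8% (median 43.2%), Zscan4c 15.3% to 39.4% (27.5%), Zscan4b 9.91% to 25.0% (14.4%), Zscan4d 7.69% to 21.3% (9.26%) and Zscan4e 0% to 7.27% (3.97%). In Dnmt1cKO 1 Zscan4f and Zscan4b had their highest shares and Zscan4c its lowest. In Dnmt1cKO 8 the reverse held, with Zscan4c and Zscan4d at their highest and Zscan4f and Zscan4b at their lowest shares. Zscan4e was at 0 in both, and its highest share and the lowest of Zscan4d were in Dnmt1cKO 4. Tcstv1 made up 80.9% to 100% of the Tcstv sum. Because the copies are near-identical, these shares also depend on how the authors' software divided shared reads.

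**Figure D2:**
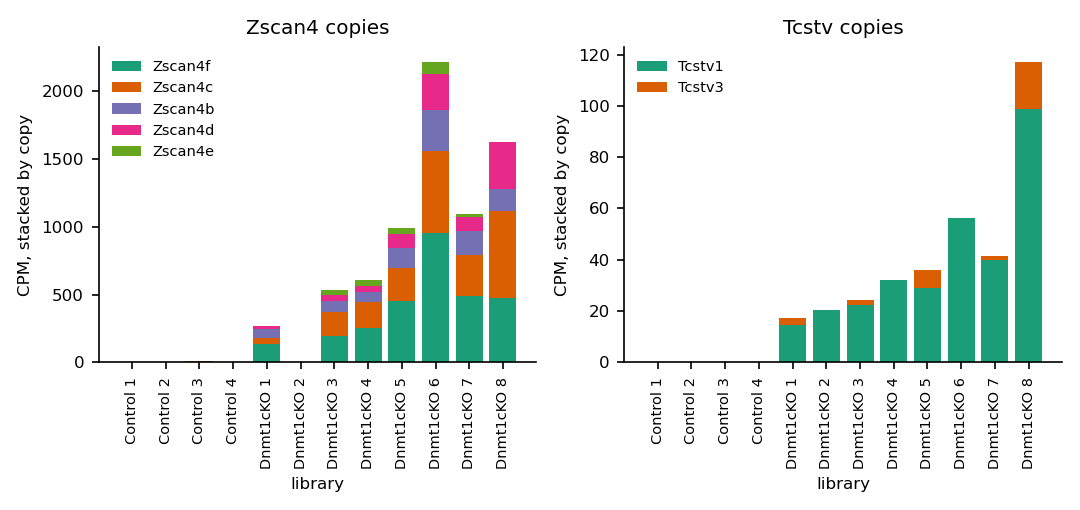
Stacked CPM of the Zscan4 copies (left) and Tcstv copies (right) in each library; each bar starts at 0 and colours stand for copies. Zscan4f and Zscan4c fill most of each Zscan4 bar, and Dnmt1cKO 2 has a Tcstv1 bar but no visible Zscan4 bar.

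Dnmt1cKO 2 carried 5 Zscan4 counts in a library of 4007533, or 1.12 CPM with an exact Poisson 95% interval of 0.364 to 2.62. At nearly the same depth of 4009772 counts, Dnmt1cKO 8 held 5702 Zscan4 counts. The Zscan4 sum was 13.9 to 39.4 times the Tcstv sum in the 7 other libraries and 0.0549 times the Tcstv sum in Dnmt1cKO 2. Its Dnmt1 level, 42.7 CPM, lay inside the range of the other Dnmt1cKO libraries. It differed from them in other measures: 10205 genes had a count, against 12735 to 13837, and the summed markers of stroma (7248 CPM against 368 to 4630) were the highest of the group, as were those of urogenital epithelium (8971 CPM against 5625 to 8650), immune cells (115 CPM against 17.9 to 64.6) and red blood cells (1539.5 CPM against 10.5 to 944). The part of these differences in the missing Zscan4 signal was not tested.

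Over the 8 Dnmt1cKO libraries, 9 relations of the family sums were computed on log2 (CPM + 2). The ranks of the Zscan4 and Tcstv sums ran together, with Spearman's rho = 0.952 (exact permutation p = 0.00114, adjusted p = 0.01026 over 9 relations, n = 8). Pearson's r was 0.60 (exact permutation p = 0.1346, adjusted p = 0.6057, n = 8). Without the 2 libraries farthest from the median Tcstv level, Dnmt1cKO 1 and Dnmt1cKO 8, r was 0.79 (exact permutation p = 0.02639, n = 6). Without Dnmt1cKO 2, r was 0.86 (exact permutation p = 0.01329, n = 7). Both sums share the scaling of their library, and both followed the code in the sample descriptions. The Tcstv sum was 17.2, 20.4, 24.3, 32.1 and 36.01 CPM in the libraries with codes 2 to 6 and 41.6 to 117 CPM in the 3 with code 7. The Zscan4 sum, apart from Dnmt1cKO 2 (code 3), was 268, 532, 609 and 989 CPM with codes 2, 4, 5 and 6 and 1096 to 2217 CPM with code 7. The permutation treats the libraries as exchangeable, so a relation between the sums and a shared order by code cannot be told apart. None of the 8 relations to Dnmt1, stromal markers, epithelial markers or library total passed, with adjusted p of 0.6057 to 0.96555 for r and 0.69272 to 0.84013 for rho (exact permutation). Without Dnmt1cKO 2, a setting singled out after its values were seen, the Tcstv sum and the log2 library total had r = -0.90 (exact permutation p = 0.00694, n = 7, not adjusted), against r = -0.41 over all 8 libraries.

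**Figure D3:**
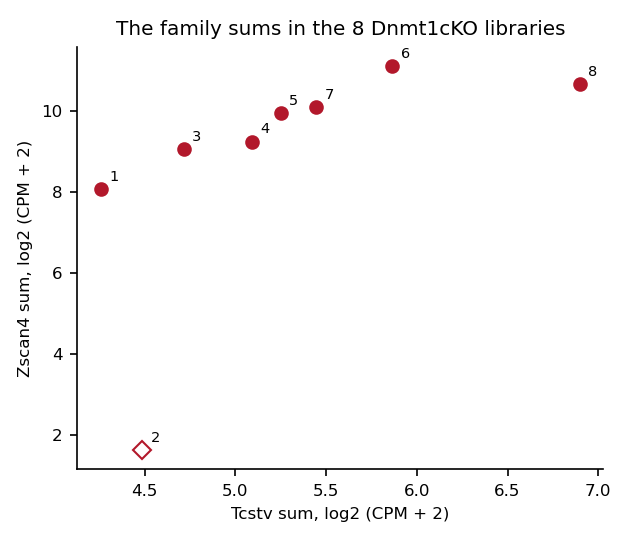
Zscan4 sum against Tcstv sum, both as log2 (CPM + 2), in the Dnmt1cKO libraries, numbered by replicate; the open diamond is Dnmt1cKO 2. The 7 other libraries run from low values of both sums (Dnmt1cKO 1) to high values of both (Dnmt1cKO 6 and 8), with Dnmt1cKO 2 far below them on the Zscan4 axis.

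Among 12287 genes whose mean log2 CPM was 1 or more, the 5 whose levels were most like the Zscan4 sum over the 8 Dnmt1cKO libraries were Barx2 (r = 0.99), a homeobox factor, Ell3, an elongation factor (r = 0.99), Zfand4 (r = 0.99), Abcb10, a mitochondrial transporter (r = 0.99), and Tamm41 (r = 0.99), an enzyme of mitochondrial lipid synthesis. Each stood at 0 to 0.449 CPM in Dnmt1cKO 2, and without that library their r was 0.89 to 0.94. Unlike Zscan4, all 5 were expressed in Control, from 186 to 1749 counts over the group, and none was called between genotypes (edgeR, adjusted p of 0.2307 to 0.9432). Zfand4 had 233 Control counts and a highest Control level of 554 CPM. So few counts reach that level only at the depth of the library labelled Control 4. Among the genes most like the Tcstv sum were Rpl10 (r = 0.97), a ribosomal protein, Bcdin3d (r = 0.97), Chmp1a (r = 0.97) and the proteasome subunit Psmb7 (r = 0.96). All 4 were highest in Dnmt1cKO 8, and none was called between genotypes (edgeR, adjusted p of 0.3685 to 0.9386). These likenesses rest on 8 libraries and describe them.

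Further copies of both families were sought by transcript sequence, over at least 400 aligned bases. Of 5 Zscan4 relatives (Zscan4-ps2, Zscan4-ps3, Zscan4a, Zscan4-ps1 and Gm45551), none had a row that could be used here, although Zscan4-ps2 is 99.8% identical to Zscan4f, so reads of a relative could be counted in a member. Of 12 Tcstv relatives, 5 had a row and were tested, and 3 rose. All 5 had 0 to 3 Control counts and passed the filter on low counts through Dnmt1cKO, so they could hardly be called lower, and nothing is read from this count beside the 1.03% of all genes called higher. Gm20767 had no Control count and a mean of 26.8 ± 26.1 CPM (SD, n = 8) in Dnmt1cKO, at least 114-fold higher (edgeR adjusted p = 0.009728). AF067061 had 3 Control counts and a mean of 37.0 ± 47.0 CPM (SD, n = 8), a ratio of 158 with a counting interval of 54.0 to 765 (adjusted p = 0.01302). B020031M17Rik had 2 Control counts and a mean of 26.2 ± 28.1 CPM (SD, n = 8), a ratio of 167 with an interval of 46.3 to 1381 (adjusted p = 0.02356). BC147527 and AF067063 had means of 2.98 and 1.35 CPM and were not called (adjusted p = 0.162 and 0.246). None of the 3 stayed called when the library labelled Control 4 was left out (adjusted p of 0.05466 to 0.1015). In Dnmt1cKO 2 the 5 relatives summed to 0.224 CPM, against 15.8 to 314 CPM in the other Dnmt1cKO libraries, so in that library they stood at Control level with Zscan4 while Tcstv1 did not.

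The genes beside the clusters were read to see how far along the chromosome the signal went. Of the 10 nearest genes with a row before the Zscan4 cluster, 9 had no count in any library, and the only tested gene, Zik1, another zinc finger gene 405 kb away, was not called (log2 fold change 1.40, edgeR adjusted p = 0.5249). All 10 genes after the cluster were without a count, and no other gene with a row lay inside it. Between Tcstv1 and Tcstv3 lay 4 genes with a row, all of them Tcstv relatives, and 3 of these rose. These 4 had 0 to 3 Control counts and passed the filter through Dnmt1cKO. None of the 3 calls held without the library labelled Control 4. Of the 10 genes before Tcstv1, 8 were tested, the Tcstv relative AF067063 among them, and 0 were called by edgeR, with 2 at an unadjusted p under 0.05, 1 called by DESeq2 and 0 by limma-voom. Over all genes tested 1.03% were called higher and 1.55% lower, so nothing is read from the counts of called neighbours.

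Listed regulators of the 2-cell genes held 0 called by edgeR. Over all genes tested 1.03% were called higher and 1.55% lower, so nothing is read from 0 calls among 6 and 36 genes. Of 9 listed activators with a row, 6 were tested and 0 were called (edgeR; at an unadjusted p under 0.05, 0 were higher and 1 lower, and DESeq2 called 1 lower), with a median log2 fold change of 0.29 beside 0.22 over all genes. Dux, the homeobox activator of the burst, was not analysed here. Tbx3, a T-box factor, had a log2 fold change of -1.06 ± 0.43 (SE) and an adjusted p of 0.1779, and Smarcad1, a chromatin remodeler, 0.21 ± 0.58 (adjusted p = 0.8859). Dppa2 averaged 2.04 CPM in Dnmt1cKO and had 14 counts in Control 1 (log2 fold change 1.79 ± 1.75, edgeR adjusted p = 0.6395). It was at 0 in Dnmt1cKO 2 and Dnmt1cKO 4, whose Zscan4 sums were 1.12 and 609 CPM. At so low a level a transcript can go unseen, and the relation of Dppa2 to Zscan4 was not tested. Dppa4 had no count in any library. Of 37 repressors with a row, 36 were tested and 0 were called (edgeR; at an unadjusted p under 0.05, 1 was higher and 2 were lower, and DESeq2 called 2 lower), with a median of 0.27. Ncl, the nucleolar protein nucleolin, and Cbx3, a heterochromatin protein, had log2 fold changes of 0.45 ± 0.29 (adjusted p = 0.4415) and 0.82 ± 0.37 (adjusted p = 0.2325).

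Other genes of the 2-cell stage held 6 that rose. Of 36 with a row, 26 were at 0 in all Control libraries and 19 of these had a count in Dnmt1cKO. Of the 17 tested, 6 rose and 0 fell, and 13 were higher at an unadjusted p under 0.05. Of these 17, 9 had no Control count, so they passed the filter through Dnmt1cKO and could not fall, and nothing is read from the count beside the 1.03% of all genes called higher. The median log2 fold change of the 17 was 7.63, which rests on genes near 0 in Control. Tmem92, a transmembrane protein, went from 0 counts in Control to 24.0 ± 18.0 CPM (SD, n = 8), at least 102-fold higher (edgeR adjusted p = 0.01057). Gm8300 (at least 110-fold, adjusted p = 0.02985), Gm5662 (at least 56.4-fold, adjusted p = 0.0311) and Gm2016 (adjusted p = 0.01636) have transcripts 87.7% to 89.0% identical to Eif1a, a translation initiation factor, over at least 1013 bases. Gm5662 and Gm2016 are 99.3% identical to each other over 1766 bases, so they may share reads and their calls may not be separate observations. Gm21312 and Gm8764 (at least 145-fold, adjusted p = 0.006363 each) have identical transcripts over 1246 bases and identical values, and count as 1 observation. Apart from Gm2016 (0.198 CPM), all of these named genes stood at 0 in Dnmt1cKO 2, where the whole list summed to 106 CPM. Zfp352, a zinc finger gene of the 2-cell stage, was among 7 of the 36 genes with no count in any of the 12 libraries.

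When the library labelled Control 4 was left out, 2 of these genes were called higher, and when Control 3 was left out too, 0 were (edgeR, 12 at an unadjusted p under 0.05); with all libraries DESeq2 called 10 and limma-voom 0. The call of Gm8300 was also lost without Control 1, 2 or 3 (adjusted p of 0.05561 to 0.09449) and that of Gm5662 without Dnmt1cKO 8 (0.05164). The summed level of the list was 15.6 to 62.6 CPM in Control and 81.0 to 762 CPM in Dnmt1cKO, with no overlap. The highest Control value was Arg2 alone, in the library labelled Control 4 (log2 fold change -0.63, not called). In Dnmt1cKO 2, Cml2, also not called, gave 34.3 CPM of the sum. Of all single genes tested, 2.59% had no overlap. The list was chosen with earlier results known, so nothing is read from the separation of its sum. Dnmt1cKO 2, at 106 CPM, lay between Dnmt1cKO 1 (81.0 CPM) and the other Dnmt1cKO libraries (193 to 762 CPM). In it 7 of the 36 genes had a count, against 16 to 24 in the rest of the group.

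Usp17l deubiquitinases and Pramel genes, which are also transcribed in cleavage embryos, were listed together, and their sum was 242 to 1455 CPM in 7 Dnmt1cKO libraries, 43.3 CPM in Dnmt1cKO 2 and 0.784 to 13.5 CPM in Control. In Dnmt1cKO 2, 2 of the 35 had a count, against 15 to 19 in the other Dnmt1cKO libraries. Of 14 tested genes in the list 10 were called higher and 0 lower, beside 1.03% of all genes called higher. Of these 14, 9 had no Control count and could not fall, so nothing is read from that count. By fitted log2 fold change, whose order among genes at 0 in Control depends on the prior count, the first 4 were BC061212 (at least 375-fold, edgeR adjusted p = 0.004498), Gm6763 (at least 291-fold, adjusted p = 0.003107), BC080695 (at least 200.01-fold, adjusted p = 0.002197) and Usp17lc (at least 140-fold, adjusted p = 0.006266), each with 0 counts in Control. B020004J07Rik, named after its values were seen, had 1.04 Control counts, 1 of them in the library labelled Control 4 at 2.84 CPM. Its ratio to the pooled Control counts was 2296, with a counting interval of 429 to 94324. A ratio to pooled counts and a ratio to a floor are unlike measures, so it is not ranked against these 4 genes. Gm6763, one of the 10, has a transcript identical to that of Gm21312 over 1246 bases, which is 85.5% identical to Alyref, an RNA export factor, over 505 bases. Its counts follow those of Gm21312 (187 and 93.3 in Dnmt1cKO 1), so both lists hold the same signal. Without the library labelled Control 4, 5 of this list were called higher, and 1 without Control 3 as well.

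**Figure D4:**
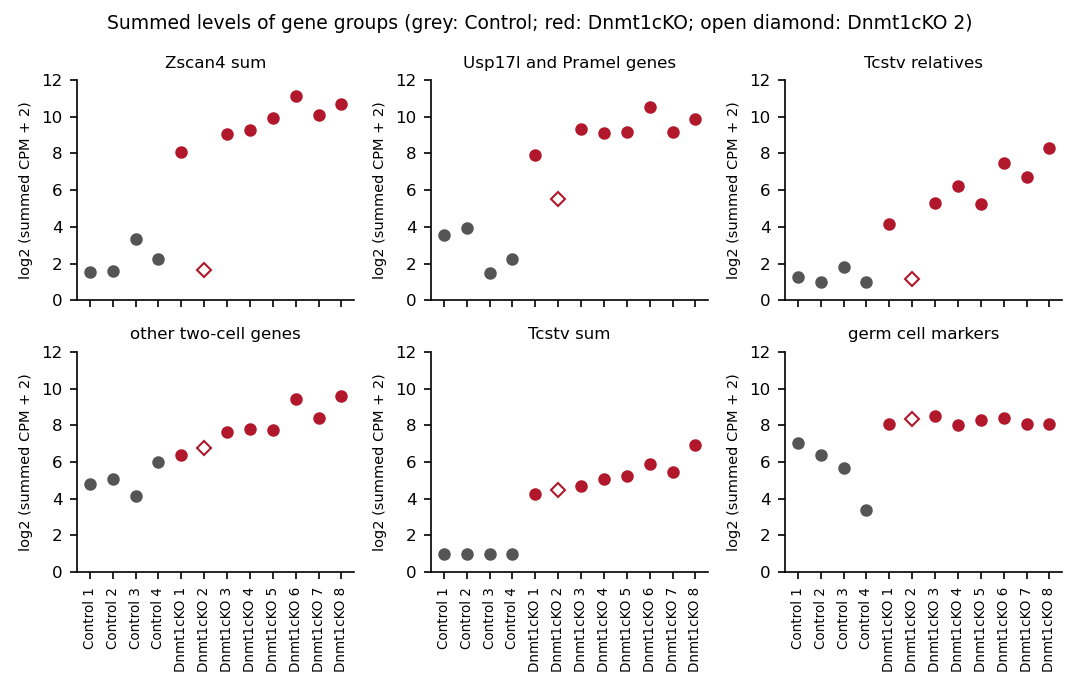
Summed level of 6 gene groups in each library, as log2 (summed CPM + 2); grey is Control, red Dnmt1cKO and the open diamond Dnmt1cKO 2. In Dnmt1cKO 2 the Zscan4 genes and the Tcstv relatives (0.224 CPM) lie at Control level, while Tcstv (20.4 CPM) and the germ cell markers (324 CPM) lie with the other Dnmt1cKO libraries.

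Markers of germ cells, which share some transcripts with the early embryo, were summed as well. Of 12 with a row, 7 were tested, 3 rose and 0 fell, beside 1.03% of all genes called higher. Of these 7, 2 had no Control count and could not fall, so nothing is read from that count. Dazl, a germ cell RNA-binding protein, stood at 192 ± 39.2 CPM (SD, n = 8) against 2.41 ± 4.43 CPM (SD, n = 4; log2 fold change 6.40 ± 0.89 SE, edgeR adjusted p = 4.039e-05). Of its 15 Control counts 12 were in Control 3, without which the log2 fold change was 9.43 (adjusted p = 2.9e-08). Ddx4, a helicase of germ cells, rose from 0 counts to 25.2 ± 14.2 CPM (SD, n = 8; at least 108-fold, adjusted p = 0.008052), and Mael, a piRNA pathway protein, from 1 count to 18.6 ± 10.8 CPM (SD, n = 8; adjusted p = 0.02356). Pou5f1, Dppa3 and Nanos2 were the 3 of the 12 with no count in any library, while 4 others had counts in Dnmt1cKO alone. At an unadjusted p under 0.05 (edgeR), 4 of the 7 tested were higher and 0 lower. Whether germ cells were present was not tested. The summed markers spanned only 258 to 367 CPM across Dnmt1cKO (Control 8.53 to 127 CPM), while the Zscan4 sum spanned 1.12 to 2217 CPM. In Dnmt1cKO 2, Dazl was at 177 CPM and Mael at 37.9 CPM, the latter the highest of the group, and Ddx4 was at 0. Without the library labelled Control 4, 2 of the list were called, and 1 without Control 3 as well. The call of Mael was also lost without Dnmt1cKO 3 (adjusted p = 0.0524).

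Genes of telomere maintenance, other SCAN zinc finger genes and pluripotency genes held 1 called gene in all. Over all genes tested 1.03% were called higher and 1.55% lower, so nothing is read from this count. Of 26 telomere genes tested, 0 were called (edgeR; at an unadjusted p under 0.05, 3 were higher and 2 lower, and by DESeq2 1 was higher and 2 were lower), with a median log2 fold change of 0.57. Atrx, a chromatin remodeler, and Terf1, a telomere-binding protein, had values of -0.66 ± 0.35 (SE, adjusted p = 0.3252) and -1.51 ± 0.48 (adjusted p = 0.08649). Of 25 other SCAN zinc finger genes tested, 1 rose: Zfp213, from 1 Control count to 15.3 ± 8.14 CPM (SD, n = 8), a ratio of 196 with a counting interval of 35.2 to 7744 (adjusted p = 0.0155). Its call held without the library labelled Control 4 (adjusted p = 0.04459) and was lost without Control 3 as well (adjusted p = 0.09705). Of 10 pluripotency genes tested, 0 were called (edgeR; at an unadjusted p under 0.05, 1 was higher and 3 were lower, and DESeq2 called 2 lower), Klf5, an epithelial Krüppel-like factor, having a log2 fold change of -1.95 ± 0.75 (adjusted p = 0.1725), which was 0.37 without the library labelled Control 4. Pou5f1 and Utf1 were among 9 of the 30 with no count in any library.

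**Figure D5:**
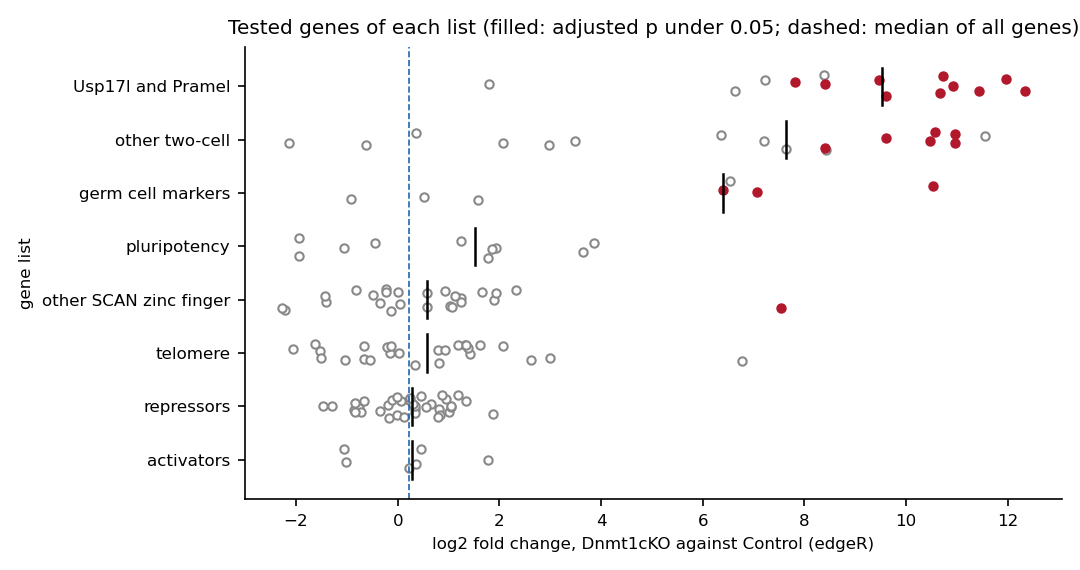
Log2 fold change (edgeR, Dnmt1cKO against Control) of each tested gene in 8 lists; filled points have an adjusted p under 0.05, open points do not, black bars are list medians and the dashed line is the median of all genes, 0.22. Calls lie in the Usp17l and Pramel list (10 of 14), the other 2-cell genes (6 of 17), the germ cell markers (3 of 7) and the SCAN zinc finger genes (1 of 25). Over all genes tested, 1.03% were called higher and 1.55% lower.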

How the data were processed

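RNA from the epithelium of the urogenital sinus was measured in 12 libraries, grouped by the genotype labels into 4 Control and 8 Dnmt1cKO. The authors deposited RSEM expected counts for 20308 gene symbols, which are estimated counts with reads that fit several genes divided between them; 38.5% of genes had a fractional value. The submitters' processing notes name Bowtie 0.12.9, RSEM 1.2.3, bcl2fastq 2.17.1.14 and the mm10 build. Not given in the sources used here are parameters, annotation and use of strand; overlapping and antisense genes are uncertain. Library totals were 543591 to 11970907 counts.

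The members and gene lists were chosen with earlier results of these data known. Levels are CPM on TMM-scaled totals of unrounded counts. Members were described and not tested. All other genes were tested on rounded counts in edgeR 4.0.16 (R 4.3.3) by its quasi-likelihood F-test (genotype only, robust, filterByExpr with a minimum count of 10 and total of 15), with Benjamini-Hochberg adjustment over 12761 genes and calls under 0.05; the test was run on simulated data first. Standard errors were taken from the F statistic. Ratios against 0 used a floor of 3 counts over the Control group, and intervals are exact Poisson at 95%. Other ratios divided the mean Dnmt1cKO CPM by the pooled Control counts, which weights the Control libraries by depth. Because separate embryo pools are not stated for every library, p-values cover only the spread seen between libraries.

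Positions and transcripts came from GENCODE (GRCm38, the mm10 build), relatives from blastn 2.17.0+ and promoters from RefSeq. The genes named were the members and their relatives; Dnmt1; in each list up to 4 called genes with the largest change, or the 2 most abundant where none was called; and the 5 genes most like each family sum. One gene named by this rule is not reported here. Gm2016, Gm5662, Zik1, Arg2, Cml2, Dppa2, Dppa4, Zfp352, Pou5f1, Utf1 and the germ cell genes at 0 were named after their values were seen. Alternatives were other scaling factors, no filter, DESeq2 1.42.0, limma-voom (limma 3.58.1), replicate blocks and left-out libraries.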

Additional observations from a re-analysis of the deposited data

Results flagged for a closer look

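Among 26 checks of a group's highest or lowest library, 9 stood apart by Dixon's criterion. Chance gives about 1 in 20 for continuous values, a rate that does not hold for 4 of the 9, the Control values of Zscan4c and Zscan4e, since with the other 3 libraries at 0 any count stands apart. Dnmt1cKO 2 was far below the other Dnmt1cKO libraries on the scale of log2 (CPM + 2) for Zscan4b (0 CPM), Zscan4f (0 CPM) and the Zscan4 sum (1.12 CPM). Dnmt1cKO 8 was far above the others on the CPM scale for Tcstv3 (18.2 CPM) and the Tcstv sum (117 CPM), and on the log scale it was not apart. In Control, Zscan4c stood at 8.29 CPM in Control 3 alone and Zscan4e at 2.84 CPM in the library labelled Control 4 alone, on both scales; these are 11 counts and 1 count in the 2 shallowest libraries.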

How the results depend on the processing

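The family sums moved by less than their standard deviation under every alternative run. With a Dnmt1cKO library left out, the Zscan4 sum was 732 to 1048 CPM and the Tcstv sum 32.5 to 46.8 CPM. Their Pearson r was 0.559 to 0.86 with a library left out, and among these passed an exact permutation test only without Dnmt1cKO 2 (r = 0.86, p = 0.01329, n = 7).

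Counts of called genes depended on the Control libraries and the tool. Against 132 higher and 198 lower genes, DESeq2 called 487 and 1030, limma-voom 8 and 31, RLE scaling 170 and 726, and library totals alone 113 and 47; without Control 3 and the library labelled Control 4 there were 45 and 2. Leaving out 1 library gave 60 to 657 higher and 36 to 494 lower; without Control 1 there were 657 and 494, and without the library labelled Control 4, 60 and 36. For the other 2-cell genes, 6 higher became 10 with DESeq2, 0 with limma-voom (8 at an unadjusted p under 0.05), 0 without both Controls and 2 to 8 with 1 library left out. Of 23 genes called and named or listed, 13 lost the call without the library labelled Control 4, 21 without both Controls, 22 with limma-voom and 0 with DESeq2 or RLE scaling.

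Replicate numbers in the titles showed no sign of pairing: deviations of same-numbered libraries had correlations of -0.05513 to 0.06129. Those of libraries with the same code were -0.04601 to 0.05363. With libraries so unequal in depth, values near 0 cannot exclude pairing. With the replicate block by title number there were 34 higher and 31 lower genes and 0 of the other 2-cell genes; with the block by code there were 135, 72 and 7. The median log2 fold change of all genes was 0.22 with TMM, 0.07 with RLE and 0.38 with library totals.

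Uncalled genes that changed direction, none of them called there, were Smarcad1 (-0.17 with limma-voom, -0.073 without the library labelled Control 4, -0.36 without both Controls), Klf5 (0.27 with limma-voom, 0.37 without the library labelled Control 4), Atrx (0.057) and Terf1 (0.042) without both Controls. With 1 library left out, Smarcad1 ranged from -0.073 to 0.76 and Klf5 from -2.36 to 0.37. Klf5 was called lower with DESeq2 and without Control 3, Tbx3 with DESeq2, and Terf1 with DESeq2, with RLE scaling, and without Control 1 or Control 2. A single count in the library labelled Control 4 is 2.84 CPM, which limits what can be seen there.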
